A study of Mus musculus with 12 samples.

Results

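Hand1 and Hand2 are paralogous genes that encode basic helix-loop-helix (bHLH) transcription factors of the heart and the lateral mesoderm. They were taken by symbol, as 2 of the 35856 rows of the deposited table. Both were among the 15663 genes with at least 1 TPM (a level scaled for transcript length and library size) in at least 2 libraries, which entered a model fitted across genes. The pair was chosen by its TPM values in all 12 libraries, which were known beforehand, so its levels and folds are described and carry no test. Tests are given for other genes only.

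The libraries came from cardiac precursors (CPs), mesodermal cells made in culture from mouse embryonic stem cells of strain C57BL/6. All 6 groups carried Tir1, a plant protein that marks proteins with an auxin-inducible degron (AID) for destruction when auxin is present. The tag sat on SUZ12, MTF2 or JARID2, subunits of Polycomb repressive complex 2 (PRC2), in lines named SUZ12-AID, MTF2-AID and, with the tag in front, AID-JARID2. Each line gave 2 untreated libraries and 2 libraries of cells kept in 50 µM indole-3-acetic acid, called auxin here. Cells of every group spent 48 h as embryoid bodies, 43 h as reaggregates with human VEGF, Activin A and BMP4, and 32 h as a monolayer with VEGF, basic FGF and FGF10. The labels do not say when auxin was added, how much BMP4 was used or whether a line was 1 clone. No line without a tag was analysed with auxin, so effects of auxin itself, of the line and of losing the subunit cannot be told apart.

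HAND proteins bind DNA as dimers with E proteins such as TCF3, and ID proteins compete for the same partners. In the mouse embryo Hand1 marks extraembryonic and lateral mesoderm, the trophoblast and the left ventricle, while Hand2 is prominent in the second heart field, the right ventricle, the limb and branchial arches and the sympathetic lineage. Both genes respond to bone morphogenetic protein (BMP) signals, and GATA4 and ISL1 act on enhancers of Hand2. PRC2 methylates a lysine of histone H3 and keeps many developmental genes silent, chiefly at promoters rich in the dinucleotide CpG. SUZ12 belongs to its core, while MTF2 and JARID2 join separate forms of the complex as accessory subunits.

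Hand1 (ENSMUSG00000037335.13) spans chr11:57828705-57832818 on the minus strand and Hand2 (ENSMUSG00000038193.4) spans chr8:57320983-57324633 on the plus strand of mm10 in GENCODE vM21. The antisense transcript Hand2os1 overlaps Hand2 on the minus strand, from 57281117 to 57324233, and was not analysed here. The libraries were strand-specific, but whether counting used the strand is not given in the sources used here, so reads of Hand2 and Hand2os1 may not have been told apart. Of the 2 genes, 1 matched the RefSeq promoter table of build GRCm38.p6. The 250 bases before the annotated start of Hand2, chr8:57320733-57320982 on the plus strand, are shown because accessory PRC2 subunits such as MTF2 bind CpG-rich DNA and because bHLH and GATA factors are known regulators of the gene. Capitals mark matches to CANNTG, the E-box read by bHLH dimers, and to GATA on either strand.
Hand2 promoter: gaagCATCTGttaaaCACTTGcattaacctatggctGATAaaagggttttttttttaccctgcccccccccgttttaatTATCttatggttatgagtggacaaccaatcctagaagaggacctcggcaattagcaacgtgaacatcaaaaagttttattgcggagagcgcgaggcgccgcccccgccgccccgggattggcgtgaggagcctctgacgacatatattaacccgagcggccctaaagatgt
The E-boxes were CATCTG at -246 and CACTTG at -235 from the start, and the GATA matches lay at -214 on the plus strand and at -171 on the minus strand, where the printed strand reads TATC. No motif overlapped another, and TATAAA was absent on both strands. Such matches were common: over 32851 promoters with windows of 300 bases (250 before to 50 after the start), 72.3% held CANNTG, 17.2% held CATCTG, 57.9% held GATA and 13.6% held TATAAA on either strand. The Hand2 window held 17 CpGs, 3 in its first 150 bases and 14 in the last 150, against a median of 7. Its ratio of observed to expected CpGs was 0.897, at the 87th percentile (median 0.384), with a GC content of 50.3% (median 52.7%). Binding and histone marks at either gene were not measured in these libraries.

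The libraries held 10138920 to 17173072 reads assigned to genes, recovered from the steps of the TPM values. Hand1 had 1119 to 32196 of them and Hand2 had 56 to 2199, and the 2 auxin AID-JARID2 libraries had the fewest for both. The series calls the replicates biological and does not say whether they were separate cultures, so the spread behind the p-values may be technical. The degron acts on protein, and the RNA of the tagged gene was 119.9 ± 9.62 and 108 ± 2.07 TPM without and with auxin for Suz12 in SUZ12-AID, and 22.1 ± 0.451 and 25.3 ± 0.910 TPM for Mtf2 in MTF2-AID (means ± SD, n = 2 libraries per group, as throughout). Jarid2 RNA rose from 44.4 ± 1.30 to 109 ± 6.85 TPM in AID-JARID2 (limma adjusted p = 2.17e-05). Some cardiac precursor genes were detected without auxin: Gata4 at 63.4 to 88.7 TPM, Isl1 at 30.3 to 34.5 TPM and Tnnt2 at 19.6 to 134 TPM as group means. Others were lower: Nkx2-5 had 1.56 to 5.78 TPM and Mef2c 6.25 to 24.5 TPM. Nppa and the T-box factor Tbx5 had means of at most 0.342 TPM in every untreated group and did not pass the filter. The untreated AID-JARID2 libraries stood apart from those of the other lines before any auxin: 12 genes of the primitive streak and paraxial mesoderm summed to 1330 and 1375 TPM there, against 139.9 to 149.5 TPM in untreated SUZ12-AID and 114.6 to 122.4 TPM in untreated MTF2-AID. Lines are therefore compared by the change within each line, and that difference in starting state stands beside every comparison between lines.

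Hand1 was among the most abundant transcripts of these cells and its level differed by line and by auxin. Untreated SUZ12-AID libraries 1 and 2 had 2291 and 2552 TPM, and the auxin libraries had 1077 and 989.8 TPM. Both auxin libraries lay below both untreated ones, with a mean that was 42.7% of the untreated mean (2421 ± 185 against 1033 ± 61.4 TPM, log2 fold change of log2(TPM + 1) -1.23, SE 0.0769). In MTF2-AID the untreated libraries had 1369.7 and 1352 TPM and the auxin libraries 1397 and 1372 TPM. The groups did not overlap, but their means differed by 23.4 TPM, less than the sum of their SDs of 29.8 TPM (log2 fold change 0.02). In AID-JARID2 the untreated libraries had 1884 and 1832 TPM, and the auxin libraries had 106.6 and 90.0 TPM. This was an 18.9-fold lower mean (1858 ± 36.9 against 98.3 ± 11.7 TPM, log2 fold change -4.23), which placed Hand1 2nd among 15663 genes ordered from the largest fitted decrease. Ranked by TPM among all rows, Hand1 stood between 31 and 109 in 10 libraries and at 1972 and 2392 in the auxin AID-JARID2 libraries. In these bulk samples, fewer Hand1-expressing cells and less Hand1 RNA per cell cannot be told apart, and the same holds for every other gene below.

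Hand2 was less abundant than Hand1 in all 12 libraries and, unlike Hand1, was higher with auxin in SUZ12-AID. Untreated SUZ12-AID libraries had 48.3 and 48.2 TPM, and the auxin libraries had 168 and 151 TPM. Both auxin libraries lay far above the untreated pair, with a mean 3.31-fold higher (48.2 ± 0.0490 against 159.9 ± 12.1 TPM, log2 fold change 1.71, SE 0.105). In MTF2-AID the untreated libraries had 54.7 and 53.5 TPM and the auxin libraries 65.98 and 75.5 TPM. These groups did not overlap either, and the mean was 1.31-fold higher with auxin (log2 fold change 0.38). In AID-JARID2 the untreated libraries had 51.6 and 43.5 TPM and the auxin libraries 4.53 and 3.83 TPM. The mean was 11.4-fold lower (47.5 ± 5.76 against 4.18 ± 0.495 TPM, log2 fold change -3.23), the 32nd largest fitted decrease, and rested on 57 and 56 reads.

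**Figure D1:**
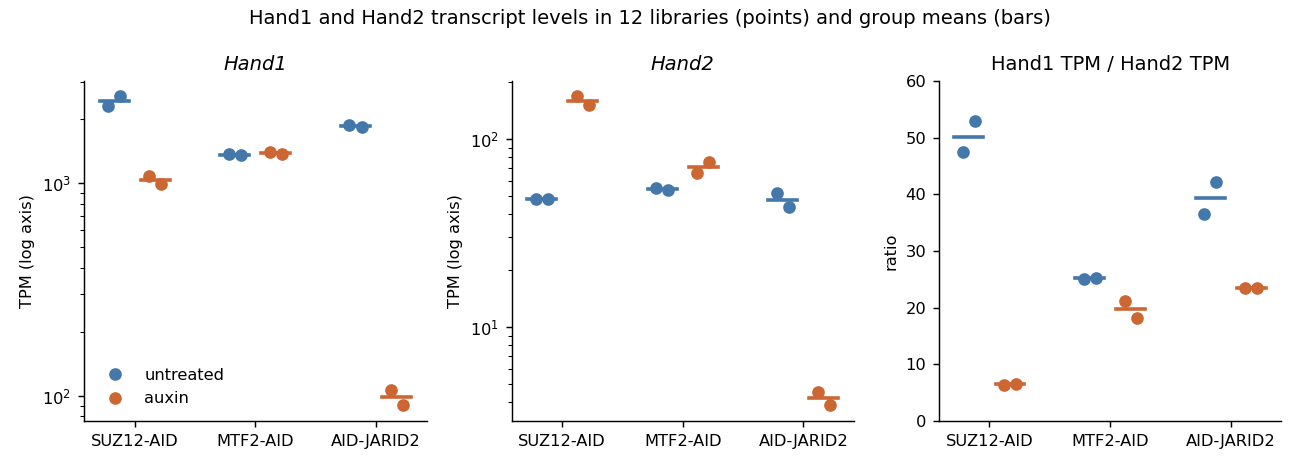
TPM of Hand1 (left) and Hand2 (middle) on log axes and their ratio (right, linear axis from 0) in 3 lines. Points are single libraries, untreated in blue and auxin in orange, and bars are means of 2 libraries; Hand1 lies below untreated with auxin in SUZ12-AID and AID-JARID2, while Hand2 lies above it in SUZ12-AID and below it in AID-JARID2.

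Without auxin the lines were close in Hand2 and far apart in Hand1. In the order of group means, Hand1 ran from untreated SUZ12-AID (2421 TPM) through untreated AID-JARID2 (1858 TPM), auxin MTF2-AID (1384 TPM), untreated MTF2-AID (1361 TPM) and auxin SUZ12-AID (1033 TPM) to auxin AID-JARID2 (98.3 TPM). Neighbours in that order did not overlap, and of these only the MTF2-AID pair differed by less than the sum of both SDs. Hand2 ran from auxin SUZ12-AID (159.9 TPM) through auxin MTF2-AID (70.7 TPM), untreated MTF2-AID (54.1 TPM), untreated SUZ12-AID (48.2 TPM) and untreated AID-JARID2 (47.5 TPM) to auxin AID-JARID2 (4.18 TPM). Untreated SUZ12-AID and untreated AID-JARID2 overlapped for Hand2 and differed by 0.709 TPM, while their Hand1 means differed by 563 TPM.

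The ratio of Hand1 to Hand2, taken within a library on the TPM scale, was lower with auxin in each line. It was 47.5 and 52.9 in untreated SUZ12-AID libraries and 6.39 and 6.54 with auxin. In MTF2-AID it was 25.1 and 25.3 untreated and 21.2 and 18.2 with auxin. The AID-JARID2 libraries had ratios of 36.5 and 42.2 untreated and of 23.6 and 23.5 with auxin. The auxin libraries lay below the untreated ones in all 3 lines, and the distance was widest in SUZ12-AID, where the genes differed in direction. As a share of their summed TPM, Hand2 went from a mean of 1.96% to 13.4% in SUZ12-AID, from 3.82% to 4.86% in MTF2-AID and from 2.49% to 4.07% in AID-JARID2. The sum itself was 2469.7 and 1193 TPM without and with auxin in SUZ12-AID. It was 1415 and 1455 TPM in MTF2-AID but 1906 and 102.5 TPM in AID-JARID2, so that the remaining Hand2 in auxin AID-JARID2 was a slightly larger share of a far smaller total.

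The auxin effects of the lines were set against each other for each gene. For Hand1, the log2 fold change in AID-JARID2 was below that in SUZ12-AID by -3.004 (SE 0.109) and below that in MTF2-AID by -4.26, and MTF2-AID lay above SUZ12-AID by 1.25. For Hand2 the same differences were -4.93 (SE 0.149), -3.61 and -1.33. The direction was thus shared by SUZ12-AID and AID-JARID2 for Hand1 and opposite for Hand2. Like Hand2, 23 of 15663 genes (0.147%, Hand2 among them) were at least 2-fold higher in SUZ12-AID and at least 2-fold lower in AID-JARID2 by the fitted value. Of all genes, 4.72% met the first and 4.39% the second of these limits. The pair was chosen on these values, so such shares are a description. Besides Hand2, the listed genes there were Bmp6, a BMP ligand, Gata3, a zinc-finger factor of trophoblast and sympathetic cells, and Myl4, an atrial and embryonic myosin light chain. Hand1 was among 24 genes (0.153%) at least 2-fold lower in both lines. Only 0.67% of genes met this limit in SUZ12-AID, so the 2 combinations cannot be read as equally rare. The listed genes that were lower in both lines were Hoxb6 and Pitx1, homeobox factors of posterior lateral mesoderm and hindlimb. For comparison, 198 genes (1.26%) were at least 2-fold higher in both lines, where 6.05% met this in AID-JARID2, and 12 (0.0766%) were at least 2-fold lower in SUZ12-AID and higher in AID-JARID2.

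**Figure D2:**
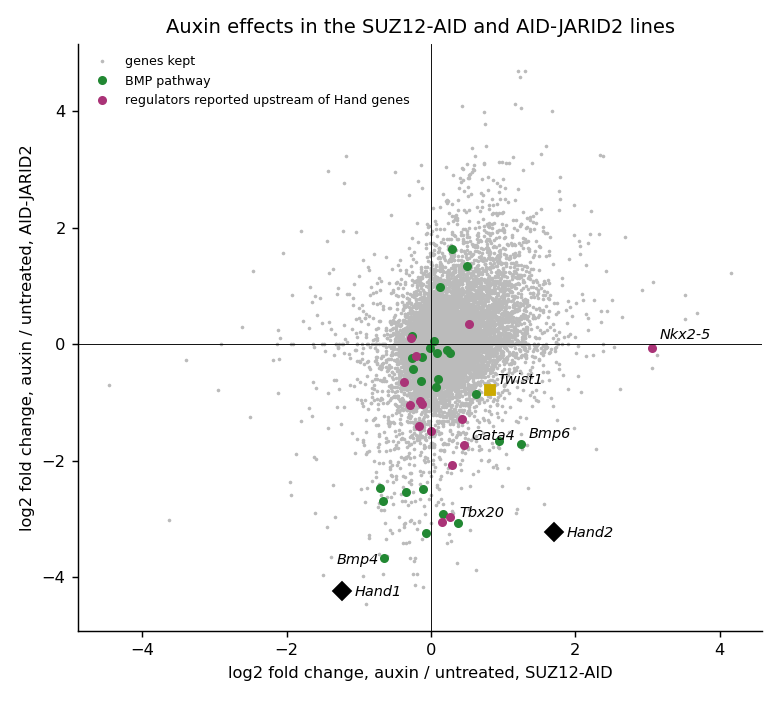
Log2 fold change of log2(TPM + 1) with auxin in SUZ12-AID (horizontal) and in AID-JARID2 (vertical) for 15663 genes (grey), with BMP pathway genes in green, listed upstream regulators in magenta, Twist1 as a gold square and Hand1 and Hand2 as black diamonds. Hand1 lies in the lower left at -1.23 and -4.23, beyond Bmp4, and Hand2 in the lower right at 1.71 and -3.23.

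Other genes of the HAND pathway were read from lists and tested in the fit over all genes (limma on log2(TPM + 1), two-sided, Benjamini-Hochberg adjusted p under 0.05). As the background for every adjusted count below, 15.1% of the 15663 genes were higher and 4.05% lower with auxin in SUZ12-AID (19.1% together). The shares were 0.0447% higher and 0.0192% lower (0.0638% together) for MTF2-AID. For AID-JARID2 they were 19.5% higher and 17% lower (36.5% together). The median log2 fold change over all genes was 0.06, 0.01 and 0.01 in turn. Leaving out 1 library also moved the counts over all genes. A list count that moved in such a fit need not be particular to that list. A count at an unadjusted p under 0.05 is given where no member passed in MTF2-AID, and in places for other lines. The share of all genes at that limit was not taken, so such counts have no background here. Named by rule are the up to 4 largest called changes of a list and line among genes with a mean of at least 5 TPM; other genes named were chosen after their values were seen.

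Among dimer partners and inhibitors, the genes of all 4 ID proteins rose in AID-JARID2, and the share called in SUZ12-AID was close to that of all genes. Of 11 members, 1 rose and 1 fell in SUZ12-AID (3 fell without untreated replicate 1), 4 rose and 3 fell in AID-JARID2, and none passed in MTF2-AID (1 higher and 0 lower unadjusted). Tcf3, the most abundant E protein gene of the list, fell from 203 ± 17.1 to 159.8 ± 3.77 TPM in SUZ12-AID (adjusted p = 0.00326) and from 211 ± 7.82 to 158 ± 0.742 TPM in AID-JARID2 (adjusted p = 0.00035). The E protein genes Tcf4 and Tcf12 did not pass in any line, with log2 fold changes between -0.22 and 0.03. ID proteins take E proteins away from tissue-specific bHLH factors. Id2 rose from 55.7 ± 5.35 to 170 ± 20.0 TPM, Id1 from 311 ± 18.8 to 596 ± 38.9 TPM, Id3 from 466 ± 45.0 to 673 ± 17.6 TPM and Id4 from 3.68 ± 0.0502 to 6.78 ± 0.999 TPM. The call of Id4 was lost without any 1 of the AID-JARID2 libraries (adjusted p = 0.0565 to 0.165). In SUZ12-AID, Id3 rose from 611 ± 11.1 to 714 ± 47.9 TPM (adjusted p = 0.0379), a call that ended in 9 of the 12 fits without 1 library, the highest adjusted p being 0.202 without auxin replicate 1. Fhl2, a LIM protein reported to bind HAND1, fell from 13.1 ± 0.716 to 7.46 ± 1.12 TPM in AID-JARID2, and Ppp2r5d, a phosphatase subunit reported to act on HAND1, fell from 237 ± 0.440 to 209 ± 3.73 TPM.

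Among 32 other tissue-restricted bHLH genes, 17 passed the filter. In SUZ12-AID 6 rose and 1 fell, in AID-JARID2 3 rose and 7 fell, and none passed in MTF2-AID (3 higher and 1 lower unadjusted). Twist1, a factor of mesenchyme that dimerizes with HAND proteins in the limb, went the way of Hand2 in both lines: it rose from 36.0 ± 2.91 to 64.4 ± 5.75 TPM in SUZ12-AID (adjusted p = 0.000408) and fell from 42.3 ± 2.94 to 24.2 ± 0.429 TPM in AID-JARID2 (adjusted p = 0.000134). Its paralog Twist2 went the way of Hand1: it fell from 55.3 ± 0.546 to 38.6 ± 3.29 TPM in SUZ12-AID (adjusted p = 0.027) and from 22.4 ± 3.15 to 2.98 ± 0.640 TPM in AID-JARID2 (adjusted p = 4.54e-07). The SUZ12-AID call of Twist2 was lost without untreated replicate 1 (adjusted p = 0.0684), untreated replicate 2 (0.0584) or auxin replicate 2 (0.178). Ascl2, a trophoblast factor, rose from 1.86 ± 0.331 to 6.43 ± 1.10 TPM in SUZ12-AID. Atoh8 was higher in SUZ12-AID (5.82 ± 0.450 to 8.61 ± 0.143 TPM, adjusted p = 0.0185) and lower in AID-JARID2 (2.89 ± 0.0236 to 0.720 ± 0.0764 TPM), and its SUZ12-AID call was lost without untreated replicate 1 (adjusted p = 0.064), auxin replicate 1 (0.0679) or auxin replicate 2 (0.0805). In AID-JARID2 the oligodendrocyte factors Olig1 and Olig2 rose from 38.5 ± 2.00 to 93.3 ± 1.65 TPM and from 5.70 ± 0.460 to 22.8 ± 0.916 TPM. The presomitic mesoderm factor Msgn1 fell there from 185 ± 0.555 to 58.2 ± 0.0333 TPM. The genes of this class that rose in SUZ12-AID numbered 3 without auxin replicate 1 or without auxin replicate 2.

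Many listed genes of the BMP pathway fell in AID-JARID2, among them ligands, inhibitors and targets. Whether BMP signalling changed, and its part in the Hand levels, was not tested. Of 26 members kept out of 29, 15 fell and 3 rose in AID-JARID2 (median log2 fold change -0.62), 4 rose and 5 fell in SUZ12-AID (median 0.05), and none passed in MTF2-AID (4 higher and 0 lower unadjusted). The share of members that rose in SUZ12-AID was close to that of all genes (15.1%). All 5 ligand genes kept fell in AID-JARID2. Bmp4, the ligand that was also added to the medium, fell from 331 ± 9.12 to 25.1 ± 2.71 TPM (adjusted p = 6.34e-10, log2 fold change -3.68), and Bmp2, Bmp5 and Bmp7 fell from 64.1 ± 1.62 to 7.68 ± 1.01 TPM, from 40.2 ± 2.91 to 3.897 ± 0.133 TPM and from 57.2 ± 0.143 to 9.46 ± 0.435 TPM. In SUZ12-AID the ligands split. Bmp4 and Bmp7 fell, from 284 ± 8.65 to 180 ± 2.34 TPM (adjusted p = 0.000224) and from 79.4 ± 7.02 to 48.4 ± 3.31 TPM. Bmp6 rose from 7.07 ± 0.749 to 18.3 ± 2.23 TPM (adjusted p = 0.00031), and in AID-JARID2 it fell from 10.5 ± 0.117 to 2.52 ± 0.468 TPM. Bmp5 rose from 49.9 ± 8.09 to 64.7 ± 6.60 TPM in SUZ12-AID (adjusted p = 0.0419), a call lost in 10 of the 12 fits without 1 library, up to an adjusted p of 0.265 without auxin replicate 2.

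Among the 6 secreted BMP-binding proteins kept, Bmper, a modulator of BMP activity, rose from 9.63 ± 2.89 to 19.1 ± 0.307 TPM in SUZ12-AID and fell from 36.7 ± 1.71 to 10.9 ± 0.365 TPM in AID-JARID2. The antagonist Nog did the same, at 17.5 ± 1.10 and 27.5 ± 0.500 TPM in SUZ12-AID and 18.9 ± 0.269 and 10.0 ± 0.216 TPM in AID-JARID2, without and with auxin. The antagonists Chrd and Fst rose in AID-JARID2, Chrd from 2.97 ± 0.283 to 9.25 ± 2.84 TPM and Fst from 56.1 ± 1.66 to 177 ± 2.61 TPM. Of 6 receptor genes, the only call was that of Bmpr1b in AID-JARID2, from 0.290 ± 0.0516 to 1.54 ± 0.215 TPM. Feedback genes that BMP signals induce fell in AID-JARID2: the inhibitory SMAD Smad6 from 109 ± 0.491 to 17.9 ± 0.581 TPM and the decoy receptor Bambi from 75.2 ± 0.786 to 12.6 ± 0.829 TPM. The homeobox targets did too, Msx1 from 239 ± 13.9 to 36.3 ± 3.20 TPM and Msx2 from 207 ± 1.17 to 21.1 ± 3.32 TPM. Id1, Id2 and Id3, which BMP signals also induce, rose in the same libraries, as given above, and are not in the counts of this list. In SUZ12-AID, Msx1 fell from 228 ± 0.0938 to 144 ± 11.9 TPM and Smad6 from 149 ± 16.1 to 117 ± 8.89 TPM, while Msx2 had 107 ± 7.93 and 102 ± 1.501 TPM and did not pass. The number of pathway members that fell in SUZ12-AID was larger without untreated replicate 1 and smaller without untreated replicate 2 or auxin replicate 2. The number over all genes moved the same way in each of these fits.

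Most regulators reported to act on Hand1 or Hand2 fell in AID-JARID2. Of 15 members kept out of 18, 11 fell and 0 rose in AID-JARID2 (0 higher also at an unadjusted p), 3 rose and 1 fell in SUZ12-AID, and none passed in MTF2-AID (1 higher and 0 lower unadjusted). Smarcd3, a subunit of cardiac BAF chromatin remodelling complexes, fell from 40.6 ± 1.64 to 4.16 ± 1.58 TPM in AID-JARID2. The T-box factor Tbx20 fell from 32.6 ± 2.44 to 3.27 ± 0.398 TPM, and the second heart field factor Isl1 from 34.5 ± 4.79 to 7.48 ± 2.10 TPM. Gata4, a direct activator of Hand2, fell from 88.7 ± 0.837 to 26.2 ± 4.34 TPM (adjusted p = 1.55e-06). Isl1 and Tbx20 did not pass in SUZ12-AID, where Isl1 had 31.8 ± 0.961 and 39.0 ± 0.992 TPM and Tbx20 30.2 ± 8.69 and 35.9 ± 1.23 TPM. Nkx2-5, the homeobox factor of early cardiomyocytes, rose from 2.25 ± 0.740 to 25.9 ± 3.57 TPM in SUZ12-AID (adjusted p = 3.11e-05) and had 1.56 ± 0.126 and 1.46 ± 0.291 TPM in AID-JARID2, where it did not pass. Gata4 rose from 63.4 ± 7.76 to 87.5 ± 6.42 TPM in SUZ12-AID (adjusted p = 0.0168), and the call was lost without untreated replicate 1 (adjusted p = 0.0735) or auxin replicate 2 (0.131). Mef2c, a MADS-box cardiac factor, rose from 24.5 ± 3.59 to 33.2 ± 0.516 TPM there (adjusted p = 0.024), a call lost without untreated replicate 1 (0.0923), auxin replicate 1 (0.0889) or auxin replicate 2 (0.102), and it fell from 6.25 ± 0.305 to 1.99 ± 0.179 TPM in AID-JARID2. Srf, a MADS-box factor of muscle genes, fell from 98.4 ± 7.30 to 81.1 ± 3.02 TPM in SUZ12-AID (adjusted p = 0.013, and 0.0698 without auxin replicate 1). The count of upstream regulators that rose in SUZ12-AID was smaller without untreated replicate 1 or without auxin replicate 2. The count that fell was larger without untreated replicate 1 and smaller without auxin replicate 1. The counts over all genes moved the same way in these fits.

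Genes reported downstream of HAND factors were few in these cells: 6 of 12 passed the filter. Prl3d1, the placental lactogen of trophoblast giant cells, was at 0 in all 12 libraries, and Nppa, a natriuretic peptide of chamber myocardium, had means of at most 0.237 TPM. In AID-JARID2 3 members fell and 2 rose, in SUZ12-AID 1 fell, and none passed in MTF2-AID (2 higher and 0 lower unadjusted). The T-box factors Tbx2 and Tbx3, which pattern non-chamber myocardium, fell from 40.4 ± 1.89 to 1.34 ± 0.143 TPM and from 135 ± 0.854 to 13.3 ± 1.59 TPM in AID-JARID2. The hedgehog receptor Ptch1 fell there from 18.1 ± 1.49 to 8.88 ± 0.104 TPM. Tagln, a smooth muscle cytoskeletal gene, fell from 61.1 ± 0.540 to 48.5 ± 4.37 TPM in SUZ12-AID (adjusted p = 0.00766, and 0.0646 without auxin replicate 2) and rose from 102 ± 3.13 to 189 ± 4.80 TPM in AID-JARID2. Phox2a, a sympathetic factor, rose from 4.08 ± 0.866 to 8.73 ± 0.133 TPM in AID-JARID2, a call that was lost without untreated replicate 1 (adjusted p = 0.101), auxin replicate 1 (0.0658) or auxin replicate 2 (0.0617). The count that fell in SUZ12-AID was larger without untreated replicate 1, and so was the count over all genes.

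Genes of the mesoderm in which Hand1 and Hand2 are normally made mostly fell in AID-JARID2 and went both ways in SUZ12-AID. Over all genes, 15.1% rose and 4.05% fell in SUZ12-AID, so the decreases there stood out more than the rises. Of 24 genes kept out of 25 of lateral, extraembryonic and juxtacardiac mesoderm, 15 fell and 2 rose in AID-JARID2 (median log2 fold change -2.03; 1 rose without untreated replicate 1, auxin replicate 1 or auxin replicate 2), and 5 rose and 7 fell in SUZ12-AID (median -0.08). Foxf1, a forkhead factor of extraembryonic and splanchnic mesoderm, fell from 170 ± 5.84 to 6.76 ± 0.478 TPM in AID-JARID2 and from 103 ± 21.1 to 53.9 ± 0.213 TPM in SUZ12-AID. Pmp22 and the collagen gene Col1a1 fell in AID-JARID2, from 317 ± 0.926 to 19.5 ± 0.291 TPM and from 52.7 ± 2.29 to 3.07 ± 0.105 TPM. Hoxb6 and Pitx1 fell in SUZ12-AID, from 16.98 ± 1.52 to 3.69 ± 0.910 TPM and from 30.6 ± 1.10 to 11.7 ± 4.21 TPM, while Mab21l2 rose from 1.80 ± 0.287 to 9.65 ± 2.11 TPM. The count that rose in SUZ12-AID was between 2 and 4 in the fits without 1 library.

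Heart field and early myocardial genes that passed in SUZ12-AID all rose, and in AID-JARID2 most that passed fell. Of 23 kept out of 25, 11 rose and 0 fell in SUZ12-AID (16 higher and 0 lower unadjusted, median 0.54), and 4 rose and 12 fell in AID-JARID2 (median -0.51). Six2, a second heart field homeobox gene, rose from 6.30 ± 0.209 to 30.0 ± 1.04 TPM in SUZ12-AID and fell from 20.8 ± 0.0743 to 11.4 ± 0.804 TPM in AID-JARID2. Irx4, a ventricular homeobox gene, and Myh7, a myosin heavy chain, rose in SUZ12-AID from 1.48 ± 0.1196 to 6.14 ± 1.04 TPM and from 4.06 ± 0.866 to 12.8 ± 1.09 TPM. The atypical homeobox gene Hopx rose in both lines, from 2.25 ± 0.1496 to 10.2 ± 0.313 TPM in SUZ12-AID and from 2.75 ± 0.254 to 20.0 ± 0.185 TPM in AID-JARID2. The troponin genes Tnni1 and Tnnt2 fell in AID-JARID2 from 27.7 ± 1.58 to 3.52 ± 0.164 TPM and from 19.6 ± 3.38 to 2.77 ± 0.0626 TPM, with Popdc2 from 9.46 ± 0.257 to 0.913 ± 0.623 TPM. The count that rose in SUZ12-AID was 7 without auxin replicate 1. In MTF2-AID no member of either list passed (6 higher and 1 lower unadjusted among the mesoderm genes, 3 and 0 among the heart genes).

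**Figure D3:**
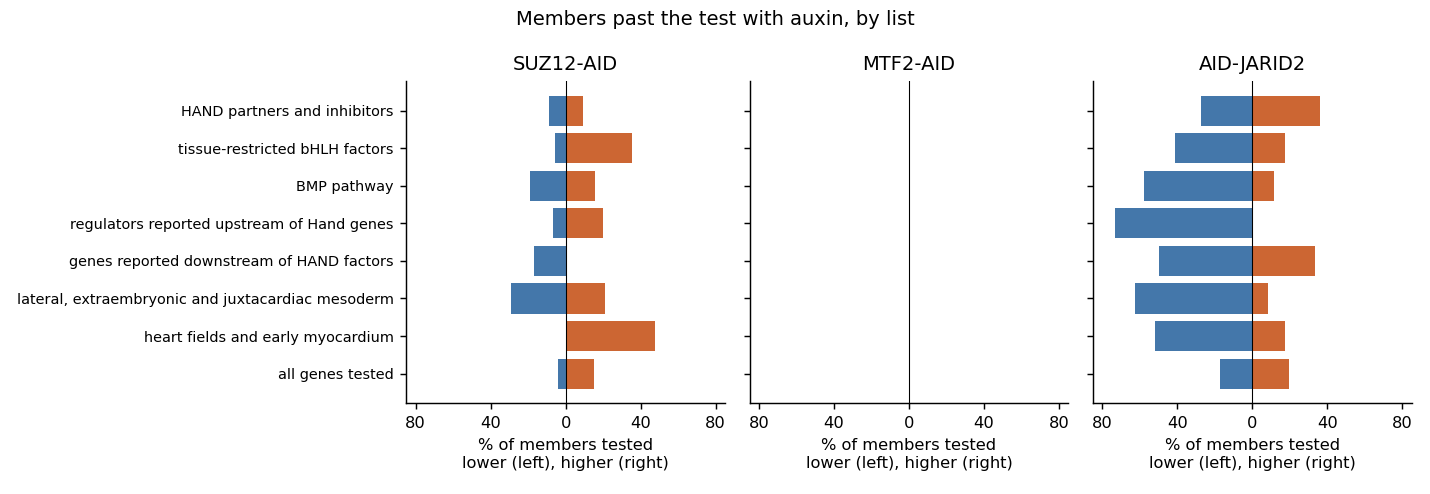
Share of the members tested in each list that were lower (blue, drawn to the left) or higher (orange, drawn to the right) with auxin, in percent, for 3 lines, with all 15663 genes in the lowest row. In AID-JARID2 the upstream regulators have 11 of 15 members lower and none higher, in SUZ12-AID the heart genes have 11 of 23 higher and none lower, and in MTF2-AID no listed member of these 7 lists passed.

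Hand1 and Hand2 are also expressed by cells other than cardiac precursors, and markers of those cells were read in the same libraries. Of 9 trophoblast markers kept out of 14, 8 rose and 0 fell in SUZ12-AID, and the 14 summed to 2578 to 2868 TPM untreated and 3865 to 4324 TPM with auxin. Krt8 and Krt18, keratins that many epithelia share, made up most of that sum: Krt8 rose from 1045 ± 12.6 to 1607 ± 72.8 TPM. Esx1 and Krt7 rose from 0.4002 ± 0.0756 to 24.1 ± 2.48 TPM and from 3.30 ± 1.35 to 34.4 ± 4.11 TPM, while Prl3d1, Prl2c2 and Tpbpa, which define differentiated trophoblast, were at 0 in all 4 SUZ12-AID libraries. In AID-JARID2 3 of the 9 rose and 4 fell, and the sum went from 3205 to 3438 TPM untreated to 1000.01 to 1042 TPM with auxin, with Krt8 at 1019 ± 26.7 and 340 ± 6.995 TPM. In MTF2-AID the sum was 2094 to 2216 and 2649 to 2668 TPM, and Krt8 passed (657 ± 9.47 to 862 ± 3.19 TPM, adjusted p = 0.00783), but not without untreated replicate 1 (0.0741), auxin replicate 1 (0.0868) or auxin replicate 2 (0.105).

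Of 9 sympathetic and neural crest markers kept out of 13, 3 rose and 0 fell in SUZ12-AID, and 4 rose and 2 fell in AID-JARID2 (2 rose without auxin replicate 2). The 13 summed to 34.0 to 35.3 TPM untreated and 61.8 to 62.3 TPM with auxin in SUZ12-AID, and to 29.1 to 30.9 and 75.8 to 81.0 TPM in AID-JARID2. Tfap2b was at 0 in all 12 libraries. Of 12 pluripotent cell markers, 8 rose and 1 fell in SUZ12-AID and 10 rose and 1 fell in AID-JARID2, where Sox2 rose from 5.07 ± 0.876 to 98.8 ± 0.907 TPM and Utf1 from 30.7 ± 1.37 to 820 ± 4.78 TPM. Their sum was 529 to 551 TPM untreated and 623 to 708 TPM with auxin in SUZ12-AID, 652 to 680 and 689 to 696 TPM in MTF2-AID, and 1281 to 1285 and 4370.2 to 4439 TPM in AID-JARID2. Streak and paraxial genes summed to 1330 to 1375 TPM untreated and 1371 to 1432 TPM with auxin in AID-JARID2, with 3 of 10 higher and 4 lower (2 lower without untreated replicate 1 or without auxin replicate 2). Streak and paraxial calls in SUZ12-AID were 4 higher and 0 lower (1 lower unadjusted), and 1 higher without auxin replicate 2. Endothelial and blood genes gave 6 higher and 5 lower calls of 14 in SUZ12-AID and 1 and 3 in AID-JARID2, where their sum went from 157 to 158 TPM to 29.5 to 34.9 TPM. The median log2 fold change of the 14 in AID-JARID2 was only -0.13, and 10 of them did not pass. Endoderm genes gave 2 higher and 1 lower calls of 4 in SUZ12-AID and 1 and 1 in AID-JARID2. In MTF2-AID no member of these last 5 lists passed. At an unadjusted p under 0.05, with no all-gene share taken, 9 of the 14 endothelial and blood genes were lower and 0 higher. Their median log2 fold change there was -0.70, and their sum was 186 to 192 TPM untreated and 127 to 137 TPM with auxin. Of these genes 2 passed as lower without untreated SUZ12-AID replicate 1 or 2, and 6 with a variance weight per line. The unadjusted counts in MTF2-AID were 4 higher and 0 lower for streak and paraxial genes, 2 and 0 for pluripotent markers, and 1 and 0 each for the sympathetic and the endoderm markers. The part of any of these cell types in the levels of Hand1 and Hand2 was not tested.

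The genes next to Hand1 and Hand2 were read to see whether the levels changed across each locus. Of the 10 nearest genes with a row, 5 on each side, all 10 beside Hand1 and 5 beside Hand2 passed the filter. Beside Hand1, 3 fell and 2 rose in AID-JARID2, 1 rose in SUZ12-AID, and none passed in MTF2-AID (1 unadjusted). Sap30l, a SIN3 corepressor component that ends 18.5 kb from Hand1, fell from 100.5 ± 7.69 to 53.7 ± 3.67 TPM in AID-JARID2 (adjusted p = 1.38e-05, log2 fold change -0.89). Galnt10, a glycosyltransferase gene 41.2 kb away, fell from 90.0 ± 2.71 to 54.8 ± 3.99 TPM (adjusted p = 3.55e-05, log2 fold change -0.71). Both lie past the end of Hand1, which is read from the minus strand. In SUZ12-AID, where Hand1 was lower, their log2 fold changes were 0.17 and 0.19 and did not pass. Farther on that side, Mfap3 did not pass and Fam114a2, 310.1 kb away, fell from 41.1 ± 0.682 to 32.5 ± 0.0949 TPM. On the other side Larp1 (176 kb) and Gemin5 (287 kb) rose in AID-JARID2 by 0.13 and 0.32 on the log2 scale (adjusted p = 0.0268 and 0.0206), calls lost without any 1 of the AID-JARID2 libraries (adjusted p = 0.101 to 0.123 and 0.0768 to 0.0900). In SUZ12-AID the predicted gene Gm12248, annotated as protein-coding and 231 kb away, rose from 1.53 ± 0.0140 to 4.38 ± 0.765 TPM (adjusted p = 0.0149, and 0.0800 without auxin replicate 1).

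Hand2 lies in a stretch poor in expressed genes. Of the 10 neighbours, Gm33501 and Scrg1 were at 0 in all 12 libraries, and the nearest gene body other than Hand2os1, that of Gm34030 at 7.06 kb, had means of at most 0.213 TPM. The non-coding 5033428I22Rik, 7.49 kb past the end of Hand2, had 1.84 ± 1.22 and 2.74 ± 0.195 TPM in SUZ12-AID without and with auxin. It did not pass there (adjusted p = 0.328). In AID-JARID2 it fell from 1.59 ± 0.325 to 0.280 ± 0.396 TPM (adjusted p = 0.0189, but 0.110 without untreated replicate 1 and 0.156 without auxin replicate 2). Its means lay on the same sides as those of Hand2 in both lines, but its levels were low and the difference in SUZ12-AID was within the untreated SD. Fbxo8 (727 kb) and Hpgd (999.9 kb) rose in SUZ12-AID with adjusted p = 0.0378 and 0.0417. Each call was lost in 6 of the fits without 1 library, up to an adjusted p of 0.249 without auxin replicate 2 and 0.166 without untreated replicate 1. The loci share their neighbours' families: Sap30, the paralog of Sap30l, and Galnt7, a relative of Galnt10 added after the values were seen, lie 158 and 199 kb from Hand2. Sap30 had 48.4 ± 2.18 and 47.5 ± 2.62 TPM in AID-JARID2, and neither gene passed in any line.

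**Figure D4:**
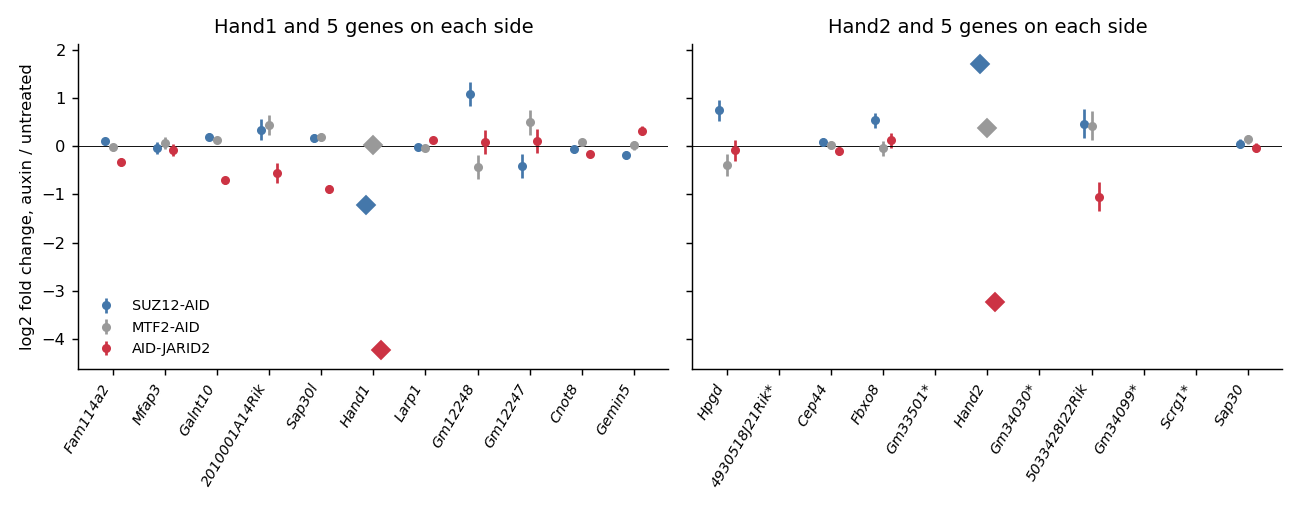
Log2 fold change with auxin of Hand1 (left) and Hand2 (right), drawn as diamonds, and of the 5 genes on each side in genome order (circles with standard errors of the fit) in SUZ12-AID (blue), MTF2-AID (grey) and AID-JARID2 (red). Names with an asterisk did not pass the filter and have no value; Galnt10 and Sap30l lie below 0 in AID-JARID2, and the Hand genes lie farther from 0 than any neighbour in that line.

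The genes most like each Hand gene were sought over the 12 libraries by Pearson r of log2(TPM + 1), among 10119 other genes with a mean of at least 5 TPM. The libraries share their line and treatment, the pair from auxin AID-JARID2 lies far from the rest for both genes, and r is given as a description. Hand1 was followed most closely by Alpk3 (r = 0.991), a muscle kinase gene, Smtnl2 (0.991), Mical1 (0.990), Prdm6 (0.990), a smooth muscle and cardiovascular repressor, Bmp4 (0.990), Maged1 (0.988), Smim1 (0.986) and Msx1 (0.986). Prdm6 kept its likeness best without the 2 auxin AID-JARID2 libraries, with r = 0.957 over 10 libraries, the highest of all genes ranked. Over those 10 libraries Alpk3 had 0.866, Bmp4 had 0.821 and Msx1 had 0.780. The genes least like Hand1 were Sox2 (r = -0.995, and -0.936 over 10 libraries), Txnrd1 (-0.991), Utf1 (-0.991) and Dtx1 (-0.989). Sox2 had its lowest mean, 3.13 TPM, in untreated SUZ12-AID, where Hand1 was highest, and its highest, 98.8 TPM, in auxin AID-JARID2.

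Hand2 had other nearest genes: Anxa2 (r = 0.989), a membrane-binding annexin, Npc2 (0.988), Meis1 (0.977), a homeobox factor of heart and limb, Mmd (0.976), Sh3bp5 (0.975), Nxf7 (0.974), Cdkn1c (0.972), a cell-cycle inhibitor, and Adra2b (0.971). Without the auxin AID-JARID2 pair, Anxa2 had r = 0.940 and Cdkn1c 0.810. Among the least like it were Wdr46 (r = -0.988), E2f4 (-0.983) and Ddx18 (-0.980). Among the upstream regulators ranked, r with Hand2 over 12 libraries ran from 0.945 for Isl1 (0.654 over 10) to -0.615 for Srf (-0.797 over 10). Nkx2-5, which had the highest r of them over 10 libraries, had 0.723 over 12 and 0.944 over 10. With Hand1 the values of Nkx2-5 were 0.204 and -0.880. Its mean was 25.9 TPM in auxin SUZ12-AID, where Hand2 was highest, and at most 5.78 TPM in the other groups. Foxh1, a partner of SMAD proteins, had 0.965 with Hand1 over 12 libraries and 0.439 over 10. Hand1 and Hand2 had r = 0.810 with each other over 12 libraries (Spearman's rho -0.042), and r = -0.800 (rho -0.806) without the auxin AID-JARID2 pair. The positive value thus rested on those 2 libraries, in which both genes were low. The other 10 are pairs of libraries from line and treatment groups, so the negative value describes differences between groups. Groups with more Hand1 tended to have less Hand2, but untreated SUZ12-AID and untreated AID-JARID2 overlapped for Hand2.

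**Figure D5:**
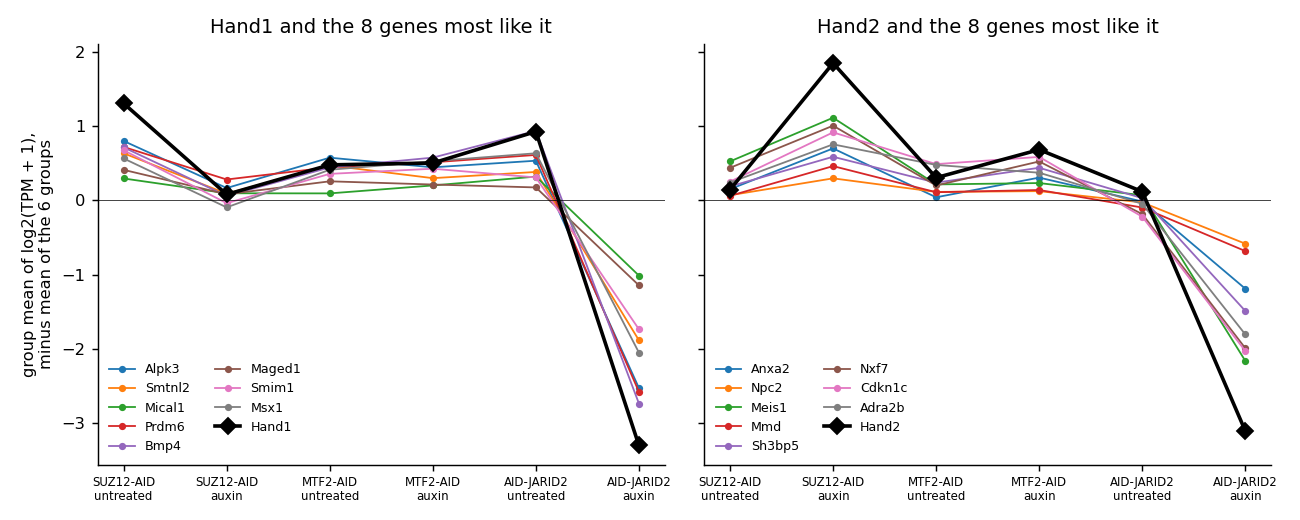
Group means of log2(TPM + 1), each minus the mean of its 6 groups, for Hand1 and its 8 most similar genes (left) and for Hand2 and its 8 (right); black diamonds mark the Hand gene and lines only join groups. All curves drop in auxin AID-JARID2, and in auxin SUZ12-AID the Hand1 set lies below its own untreated level while the Hand2 set lies above it.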

How the data were processed

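Stranded (dUTP) RNA-seq was measured in 12 libraries, 2 in each of 6 groups taken from the sample labels. Reads were aligned to mm10 with STAR 2.6.1d, per the submitters' processing notes. Which program and annotation gave the gene levels is not given in the sources used here. Per gene, the authors deposited TPM, which fix each library's total, so a large change in 1 abundant gene moves all others. Hand1, Hand2 and all gene lists were chosen with earlier results of these data known. The filter asked for 1 TPM or more in 2 or more libraries, and log2(TPM + 1) was fitted by group over all 12 libraries with limma 3.58.1 (trend; R 4.3.3) and Benjamini-Hochberg adjustment at 0.05. The scripts were tested on simulated data. Whole reads were recovered from the TPM steps as the smallest whole numbers that fit each gene (tolerance 0.001 reads), for 100% of genes with values. A gene above 0 in only 1 library always fits, so this share does not check the recovery. The recovered reads were used only for depth. Named list genes are the up to 4 largest called changes per list and line with a mean of at least 5 TPM, besides those said to be chosen afterwards. Alternatives changed the pseudocount, filter, scaling, variance model and replicate block, and left out each library. Values of 2 genes that these rules or lists include are not reported here.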

Additional observations from a re-analysis of the deposited data

Results flagged for a closer look

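For 20 genes, both auxin libraries lay to one side of the untreated ones in one line and to the opposite side in another line. The search covered Hand1, Hand2 and the called effects of list genes named by rule, of neighbours, and of Nog and Myl4. Other genes were not searched, among them those most or least like Hand1 or Hand2 and the rest of the genes named in the text. The 20 are therefore not a full count, and none of the differences was tested. Hand1 was above its untreated libraries in MTF2-AID and below them in AID-JARID2, a difference in log2 fold change of 4.26 (MTF2-AID minus AID-JARID2), although its change in MTF2-AID was within the summed SDs. Hand2 was above in SUZ12-AID and below in AID-JARID2, a difference of 4.93 (SUZ12-AID minus AID-JARID2).

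The other 18 are given as AID-JARID2 minus SUZ12-AID on the log2 scale. Among BMP and bHLH genes the differences were -3.45 for Bmp5, -2.96 for Bmp6, -2.60 for Bmper, -1.48 for Nog, -1.67 for Atoh8 and -1.61 for Twist1. Among cardiac and muscle genes they were -3.19 for Myl4, -2.98 for Tnnt2, -2.90 for Six2, -2.23 for Myh7, -2.20 for Gata4 and -1.71 for Mef2c, and 1.21 for Tagln, the only one of these 18 in the other direction. Among markers of other cells they were -3.35 for Kdr, a receptor of VEGF on endothelial precursors, -2.49 for Gata3, -2.20 for Krt8, -1.98 for Krt18 and -1.19 for Tbx6, a paraxial mesoderm factor.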

How the results depend on the processing

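Each Hand effect kept its sign in every alternative run. Values that moved were Hand1 at -1.06 in SUZ12-AID and 0.0686 in MTF2-AID under quantile normalization, and Hand2 at 1.63 in SUZ12-AID with a pseudocount of 5 or median-of-ratios scaling, and at -3.48 and -2.51 in AID-JARID2 with pseudocounts of 0.1 and 5. Leaving out each library gave Hand1 -1.31 to -1.15 in SUZ12-AID, 0.0116 to 0.0375 in MTF2-AID and -4.35 to -4.11 in AID-JARID2, and Hand2, in the same order, 1.63 to 1.78, 0.28 to 0.47 and -3.35 to -3.11. The likeness of Hand1 to Hand2 (r = 0.810) was near 0 as Spearman's rho (-0.042) and reversed without the 2 farthest libraries (-0.800).

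Counts of genes depended on the spread model, and the cause was not tested. In SUZ12-AID 2362 genes were higher (979 with a variance weight per line, 129 with each line alone) and 635 lower (215 and 27, and 1376 with median-of-ratios and 1418 with quantile scaling). The share of calls that were higher there was 78.8%, against 61% and 53.1% under those scalings. In MTF2-AID 7 were higher (4 and 12 with pseudocounts of 0.1 and 5, 55 with weights, 0 alone) and 3 lower (18 with a pseudocount of 5, 12 with no filter, 8 with quantile scaling, 109 with weights, 0 alone). Without each library the counts higher and lower were 1061 to 2862 and 261 to 1423 in SUZ12-AID, 2 to 18 and 1 to 22 in MTF2-AID, and 1856 to 3548 and 1841 to 3106 in AID-JARID2.

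Replicate numbers were not treated as pairs in the main fit. Deviations of same-numbered libraries correlated at 0.0958 in SUZ12-AID, -0.0388 in MTF2-AID and 0.00803 in AID-JARID2, which does not show that the samples were unpaired. With the replicate block, 3 genes were higher and 1 lower in MTF2-AID, and the calls of Twist2 in SUZ12-AID and Krt8 in MTF2-AID were lost. In SUZ12-AID the block gave 2541 genes higher and 792 lower, against 2362 and 635 without it. In AID-JARID2 it gave 3385 and 2939, against 3053 and 2657.

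Of 126 called effects of list genes named by rule and of neighbours, 76 passed in every alternative that gave a value. They were 61 of 72 in AID-JARID2 and 15 of 53 in SUZ12-AID, and the 1 in MTF2-AID (Krt8) was not among them. With each line fitted alone, which leaves 4 libraries, 38 of 53 were lost in SUZ12-AID and 3 of 72 in AID-JARID2. The number of Hand2 reads, 57 and 56, limits its precision in auxin AID-JARID2, although these libraries were not shallow (14391087 and 16911220 reads).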
